A study of Mus musculus with 16 samples.

Results

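The effect of losing Foxp1 was measured across all genes of the adult mouse hippocampus. The comparison used 8 of the 16 RNA sequencing libraries of the series: the 4 made from hippocampus of Foxp1 conditional knockout (cKO) mice and the 4 made from hippocampus of littermate controls (CTL). All mice were male and at postnatal day 47, and the left hemisphere was used. The other 8 libraries were made from cortex of the same 2 genotypes. The series title places Foxp1 in forebrain pyramidal neurons. The sources used here do not give the recombinase driver, the deleted exons or the strain, nor say if both tissues of an animal were taken. A conditional knockout removes the gene from chosen cells, so dissected tissue still holds RNA of cells that keep it. Libraries carry the DJ numbers of their labels: DJ15, DJ16, DJ18 and DJ19 were cKO, and DJ17, DJ20, DJ21 and DJ22 were CTL. Values of single libraries are listed in that order throughout.

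Foxp1 encodes a forkhead transcription factor, a protein that binds DNA through a winged-helix domain and acts mainly as a repressor. In the forebrain it is found in projection neurons, among them CA1 pyramidal cells of the hippocampus. The hippocampus is built of the pyramidal fields CA1 to CA3 and the granule cells of the dentate gyrus, with interneurons, mossy cells and glia between them, and it is needed for spatial memory.

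Depth was 6943136 to 14055344 reads in cKO libraries and 9578904 to 14817870 reads in CTL libraries. One read was therefore worth 0.0675 to 0.144 counts-per-million (CPM). Pearson correlations of log2(CPM + 0.5) between a cKO and a CTL library ran from 0.984 to 0.991, and those within a genotype covered nearly the same range (0.985 to 0.991 within cKO and 0.985 to 0.992 within CTL). The first principal component held 28.1% of the variance, and cKO DJ18 lay on the CTL side of it. CTL DJ17 stood apart in myelin transcripts: 6 oligodendrocyte markers summed to 5777 to 8239 CPM in cKO and to 4602, 5377 and 6314 CPM in 3 CTL libraries, but to 12031 CPM in CTL DJ17. A sum over 6 striatal markers was 259 to 601 CPM in cKO and 62.6 to 563 CPM in CTL, with the lowest value in CTL DJ22. The part of these library differences in the results below was not tested.

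Foxp1 itself measured 113, 102, 139.9 and 121 CPM in cKO and 276, 248, 214 and 171 CPM in CTL. Every cKO value lay below every CTL value, and the cKO mean was 52.3% of the CTL mean (limma log2 fold change -0.92, SE 0.14, adjusted p = 0.00716; two-sided exact permutation test over 70 labellings, p = 0.0286). In the annotation of the same build (GRCm38), Foxp1 lies at chr6:98925342-99522746. Its fall stayed past the threshold whichever library was left out (log2 fold change -1.05 to -0.82, highest adjusted p 0.0410 without CTL DJ20). In bulk tissue, fewer cells of a type and less RNA per cell cannot be told apart.

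A total of 13899 of the 21999 listed genes averaged 0.5 CPM or more in the 8 libraries and were tested. Of the rest, 4812 were at 0 in all 8 libraries and 3288 were detected below the minimum. The tested gene nearest to the minimum was Gm8281 at 0.501 CPM, and 9130213A22Rik, at 0.49996 CPM, fell just short of it. With limma on log2(CPM + 0.5) and a Benjamini-Hochberg adjusted p below 0.05, 192 genes were called (1.38% of those tested), 92 higher in cKO (0.662%) and 100 lower in cKO (0.719%). Without adjustment, p was below 0.05 for 1886 genes. All 192 called genes had 4 cKO values that did not overlap the 4 CTL values. Over all tested genes, 5.32% had all cKO values above and 2.69% had all cKO values below. The calls were made on these same values, so a lack of overlap nearly follows from a call and adds no support. Where it is given for single genes below, it is a description.

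Most changes were small. Among called genes, 23 rose by more than 1 on the log2 scale and 15 fell by more than 1, while 63 and 56 passed 0.5 in those directions. The median log2 fold change of all tested genes was 0.06, and 66.3% of genes had a fold change above 0. Median-of-ratios rescaling shifted the median by -0.06, and rescaling tilted the calls: 47.9% of calls were higher in cKO as deposited, but 30.8% of 195 calls after median-of-ratios rescaling, 33.9% of 165 after quantile normalization and 31.1% of 190 (1.37% of genes tested) with edgeR's quasi-likelihood test on recovered reads. Those 3 settings kept 158, 143 and 154 of the 192 called genes, and none of the 192 changed direction in them. Among genes named below, the rises of Clu, Calb1, Acadm, Arhgef6, Gdf10, Kitl, Ptprk, Ppp1r2, Ablim1, Sccpdh and Col12a1 lost the call both after median-of-ratios rescaling and with edgeR. So did the fall of Camk1d. Further calls were lost in these settings and are not each marked below.

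The size needed for a call depended on the read count, as the plot of fold change against mean CPM shows. Among 721 genes with a mean of 0.5 to 1 CPM, 4 were called, all higher in cKO and by at least 1.25 on the log2 scale. Among 2466 genes of 1 to 5 CPM, 10 were called. From 5 to 20 CPM, 30 of 3659 genes rose and 13 fell. From 20 to 100 CPM, 36 of 4609 rose and 32 fell. Above 100 CPM, 17 of 2444 genes rose and 50 fell, and changes as small as 0.26 were called there. Genes above 100 CPM thus made up 50 of the 100 falls but 17 of the 92 rises. The median log2 fold change of all tested genes also varied over these ranges. From the scarcest to the most abundant it was 0.11, 0.12, 0.09, 0.05 and 0.01. Its part in the direction of the calls was not tested.

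**Figure D1:**
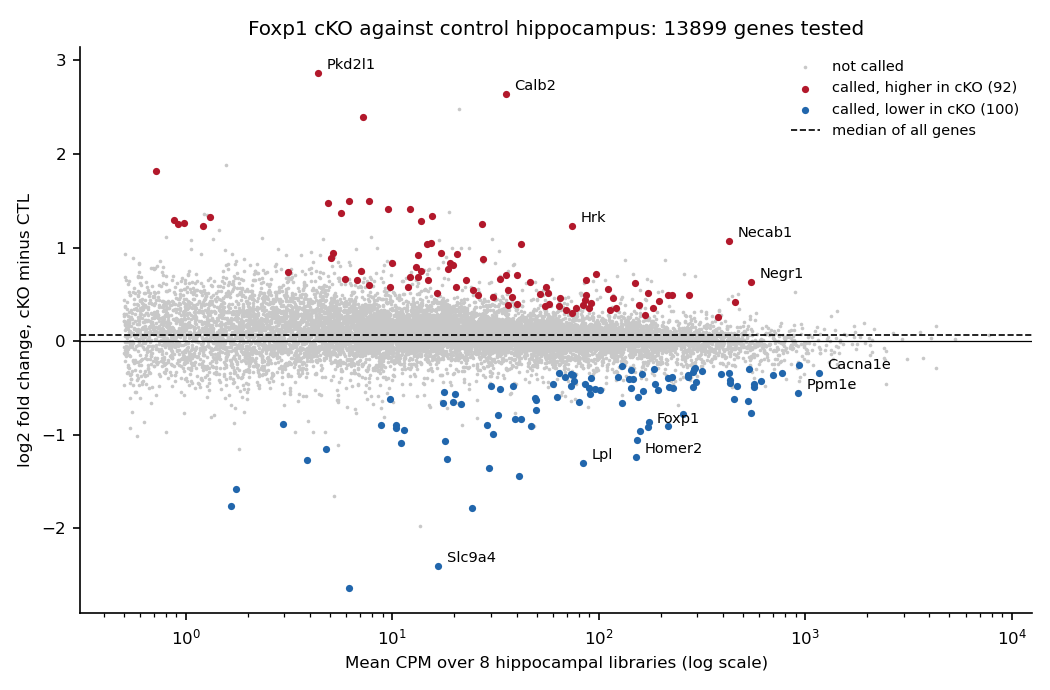
Each point is a gene: mean CPM over the 8 hippocampal libraries (log axis) against the log2 fold change, cKO minus CTL, with called genes in red (92 higher in cKO) and blue (100 lower in cKO). Called genes above 100 CPM lie mostly below the 0 line, 50 against 17.

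Calls moved strongly with single libraries. Leaving one out gave between 56 calls (without CTL DJ20) and 295 calls (without CTL DJ17). Without cKO DJ16 there were 63, without cKO DJ19 82 and without CTL DJ21 91. Every one of the 192 genes kept its direction in all of these fits. That was fixed in advance, because groups that do not overlap cannot change order when a library is left out. A core of 51 genes, 21 higher and 30 lower in cKO, passed with each library left out in turn, and its members are named as such below. The other called genes lost the call without at least 1 library: of the 192, 56 remained called without CTL DJ20, 63 without cKO DJ16, 75 without cKO DJ19, 84 without CTL DJ21, 126 without cKO DJ15, 133 without CTL DJ22, 162 without cKO DJ18 and 176 without CTL DJ17. Among the 10 largest rises it held Pkd2l1, Calb2, Cd36, Klhl14 and Adra2a, and among the 10 largest falls Slc9a4, Slc9a2, Stac, Pirt, Ndst4, Pou3f1, Lpl and Homer2.

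Forkhead proteins bind the sequence TGTTTAC. The window from 250 bases before to 50 bases after the annotated start of each called gene was searched for TGTTTAC and its reverse complement GTAAACA in the RefSeq promoter table (GRCm38.p6). A window was found for 65 of 92 genes higher in cKO and 73 of 100 genes lower in cKO. These shares, 70.7% and 73.0%, are under 80%, so a comparison of motif shares between called and other genes is void. Over all 32851 windows of the table, 3.65% hold the motif. Among called genes with a window, 3 hold it, each once, and these windows are shown 5′ to 3′ on the gene's strand with the motif in capitals because they are the called genes where the letters occur: Wdr49 (chr3:75431188-75431487, minus strand), Ralgapa1 (chr12:55821118-55821417, minus strand) and Fgf10 (chr13:118714449-118714748, plus strand).
Wdr49: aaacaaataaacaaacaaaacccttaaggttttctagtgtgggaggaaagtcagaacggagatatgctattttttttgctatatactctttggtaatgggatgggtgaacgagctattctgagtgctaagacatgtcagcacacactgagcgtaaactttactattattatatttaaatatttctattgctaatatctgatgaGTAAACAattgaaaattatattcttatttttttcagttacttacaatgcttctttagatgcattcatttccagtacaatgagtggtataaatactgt
Ralgapa1: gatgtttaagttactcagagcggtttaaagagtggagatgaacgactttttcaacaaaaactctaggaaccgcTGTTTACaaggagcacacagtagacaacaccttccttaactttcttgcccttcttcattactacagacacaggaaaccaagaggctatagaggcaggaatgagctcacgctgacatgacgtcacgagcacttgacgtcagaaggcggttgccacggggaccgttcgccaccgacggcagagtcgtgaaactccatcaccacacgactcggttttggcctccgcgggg
Fgf10: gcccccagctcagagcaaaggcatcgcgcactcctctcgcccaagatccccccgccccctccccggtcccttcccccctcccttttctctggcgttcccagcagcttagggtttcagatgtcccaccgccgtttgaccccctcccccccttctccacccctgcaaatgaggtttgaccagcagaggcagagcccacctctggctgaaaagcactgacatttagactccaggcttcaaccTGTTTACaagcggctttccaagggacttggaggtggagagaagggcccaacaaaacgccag
The motif begins 47 bases before the start in Wdr49, on the opposite strand, 177 bases before it in Ralgapa1 and 11 bases before it in Fgf10. A match is a description of letters and not a measured binding site. Wdr49, which encodes a WD-repeat protein, measured 1.42, 2.59, 2.33 and 1.35 CPM in cKO and 0.626, 0.448, 0.436 and 0.540 CPM in CTL, and the cKO values lay above the CTL values. Ralgapa1, the catalytic subunit of a GTPase activator of Ral, measured 240.0, 251, 281 and 266 CPM in cKO and 326, 317, 312 and 322 CPM in CTL, all cKO values below all CTL values. Fgf10, a secreted fibroblast growth factor, measured 15.1, 14.5, 19.2 and 15.7 CPM in cKO and 20.8, 28.3, 23.1 and 24.2 CPM in CTL, again without overlap. Their log2 fold changes were 1.23, -0.30 and -0.56, with limma adjusted p of 0.0248, 0.0336 and 0.0449. None of the 3 is in the core: without CTL DJ20, CTL DJ21 or cKO DJ16 all 3 missed the threshold (adjusted p 0.0760 to 0.169).

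Below the 10 largest rises, the genes of rank 11 to 25 by log2 fold change rose by 1.32 down to 0.88. The smallest adjusted p among them was that of Hrk, which encodes the BH3-only cell death activator harakiri. It measured 86.5, 105, 126 and 102 CPM in cKO and 40.4, 45.7, 41.4 and 49.7 CPM in CTL (limma log2 fold change 1.23, SE 0.11, adjusted p = 0.000208). The lowest cKO library, DJ15, was well above the highest CTL library, DJ22. Necab1, a neuronal calcium-binding protein, had the highest CPM of the group, on a scale not corrected for gene length, and measured 554, 579, 562 and 596 CPM in cKO and 219, 228, 409 and 269 CPM in CTL. The cKO libraries lay close together, CTL DJ21 was well above the other CTL libraries, and the groups did not overlap (limma log2 fold change 1.07, SE 0.15, adjusted p = 0.00626). Adamtsl1, a secreted matrix protein of the ADAMTS-like family, measured 15.7, 20.9, 20.9 and 21.4 CPM in cKO and 7.83, 7.34, 7.71 and 8.17 CPM in CTL. The CTL values were nearly equal, and cKO DJ15 was lower than the other cKO libraries but still far above CTL (limma log2 fold change 1.28, SE 0.12, adjusted p = 0.000294).

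Kcng3 encodes a potassium channel subunit that forms channels only together with other Kv subunits. It measured 21.6, 20.6, 21.6 and 19.6 CPM in cKO and 8.25, 9.40, 9.45 and 12.6 CPM in CTL (limma log2 fold change 1.05, SE 0.13, adjusted p = 0.00236). The 4 cKO values lay close together and all above CTL. Itgbl1, an integrin beta-like secreted protein, averaged 38.5 ± 7.07 CPM in cKO and 15.9 ± 3.01 CPM in CTL (SD, n = 4 each; limma log2 fold change 1.25, SE 0.16, adjusted p = 0.00262), and the surface glycoprotein gene Cd24a averaged 56.9 ± 14.1 CPM in cKO and 27.1 ± 4.39 CPM in CTL (limma log2 fold change 1.04, SE 0.16, adjusted p = 0.00837). Both were separated in every library. A pair of complement genes stood among these ranks. C4b, a component of the classical pathway, measured 19.4, 15.0, 18.6 and 17.4 CPM in cKO and 8.66, 9.85, 8.65 and 9.04 CPM in CTL, with nearly equal CTL values and every cKO value above them (limma log2 fold change 0.92, SE 0.11, adjusted p = 0.00261). Reads of C4b can be shared with its near-identical neighbour C4a, so its value is uncertain in that respect. Cr2, which encodes a receptor for complement fragments, was scarce and averaged 2.06 ± 0.169 CPM in cKO and 0.559 ± 0.337 CPM in CTL (limma log2 fold change 1.32, SE 0.24, adjusted p = 0.0227).

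The other rises of these ranks had larger errors relative to their size. Tox3, an HMG-box transcription cofactor, averaged 27.3 ± 5.79 CPM in cKO and 14.0 ± 2.84 CPM in CTL. Ptpn14, a tyrosine phosphatase that restrains YAP, averaged 35.6 ± 2.87 CPM in cKO and 19.5 ± 4.83 CPM in CTL. Scn7a, a sodium-sensing channel, averaged 22.6 ± 4.16 CPM in cKO and 11.7 ± 3.28 CPM in CTL. Coch, which encodes the matrix protein cochlin, averaged 20.05 ± 6.01 CPM in cKO and 9.38 ± 2.36 CPM in CTL, Ptger3, a receptor for prostaglandin E2, 6.66 ± 0.571 CPM in cKO and 3.45 ± 0.925 CPM in CTL, and Echdc2, an enoyl-CoA hydratase family member, 6.92 ± 1.09 CPM in cKO and 3.37 ± 0.557 CPM in CTL. Their limma adjusted p ran from 0.0137 to 0.0448. Cr2, Wdr49, Coch, Scn7a, Echdc2, Tox3, Ptger3 and Ptpn14 all lost the call without CTL DJ20 or without cKO DJ16 (adjusted p 0.0513 to 0.163), and Coch lost it in 6 of the 8 fits with a library left out. Hrk, Necab1, Adamtsl1, Itgbl1, Kcng3, Cd24a and C4b belong to the core.

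**Figure D2:**
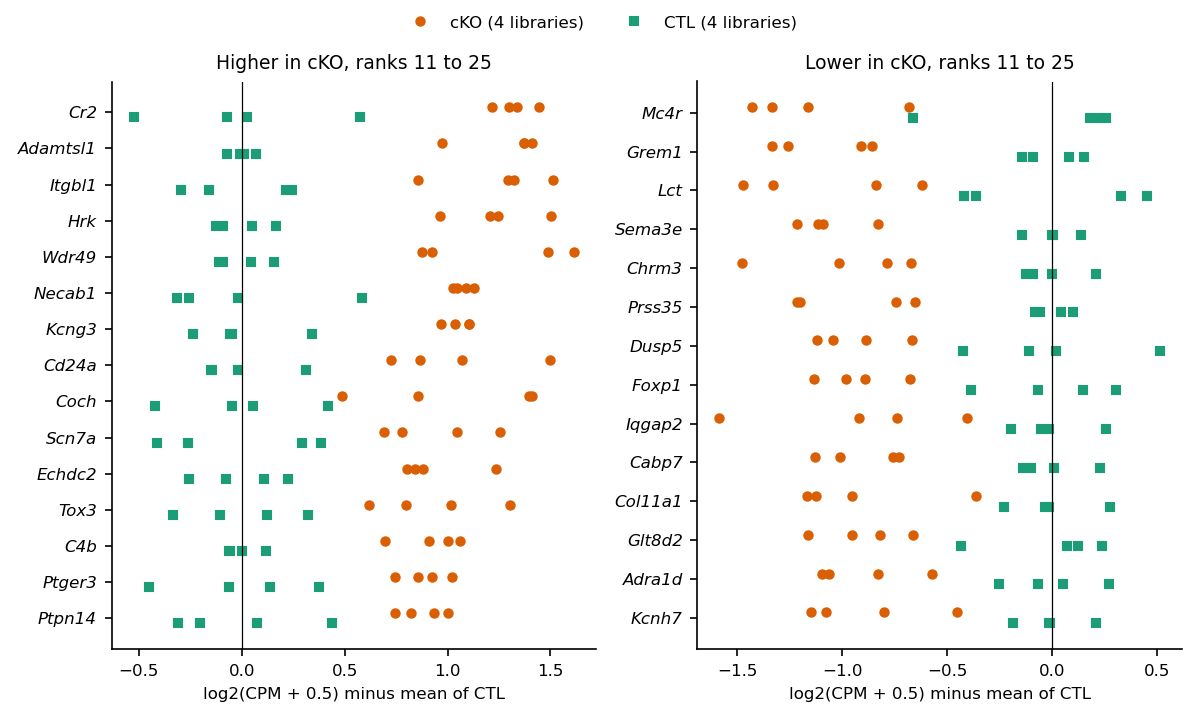
Points are single libraries, as log2(CPM + 0.5) minus the mean of the 4 CTL libraries, for genes of rank 11 to 25 in each direction that are described here, with cKO as orange circles and CTL as green squares. The choice of genes required groups without overlap; the narrowest gap is that of Mc4r, where CTL DJ17 lies beside the highest cKO library.

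The falls of rank 11 to 25 ran from -1.15 to -0.87 and included several receptors and secreted signals. Sema3e, a guidance ligand that signals through plexin-D1, measured 89.0, 95.6, 116 and 97.1 CPM in cKO and 208, 228, 207 and 188 CPM in CTL. Even the highest cKO library, DJ18, was well below the lowest CTL library, DJ22 (limma log2 fold change -1.06, SE 0.09, adjusted p = 0.000123). Grem1 encodes gremlin, an extracellular antagonist of bone morphogenetic proteins, and measured 5.67, 8.07, 5.99 and 7.76 CPM in cKO and 14.1, 16.7, 15.9 and 13.6 CPM in CTL. Here too every cKO library was below every CTL library (limma log2 fold change -1.09, SE 0.14, adjusted p = 0.00295). Cabp7, a calcium-binding protein of the calneuron type, measured 27.8, 30.1, 36.0 and 36.8 CPM in cKO and 61.6, 71.8, 55.6 and 57.1 CPM in CTL and likewise did not overlap (limma log2 fold change -0.91, SE 0.11, adjusted p = 0.00236). Kcnh7, which encodes an ERG-type potassium channel, measured 164, 129, 101 and 107 CPM in cKO and 261, 223, 223 and 198 CPM in CTL. Its cKO values were spread, highest in DJ15, but stayed below the lowest CTL value (limma log2 fold change -0.87, SE 0.14, adjusted p = 0.00926).

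These 4 genes and Foxp1, which falls within these ranks, are in the core. A further 9 were Mc4r (melanocortin-4 receptor), Chrm3 (muscarinic acetylcholine receptor M3), Adra1d (alpha-1D adrenergic receptor), Lct (lactase, known in mouse hippocampus as a granule cell marker), Prss35 (a secreted serine protease), Dusp5 (a nuclear ERK phosphatase), Iqgap2 (a cytoskeletal scaffold), Col11a1 (a fibrillar collagen chain) and Glt8d2 (a glycosyltransferase family member). Chrm3 averaged 20.7 ± 4.85 CPM in cKO and 40.9 ± 4.43 CPM in CTL (SD, n = 4 each), Prss35 7.66 ± 1.67 CPM in cKO and 15.1 ± 0.909 CPM in CTL, Iqgap2 154 ± 48.9 CPM in cKO and 281 ± 38.1 CPM in CTL and Dusp5 6.96 ± 1.06 CPM in cKO and 14.0 ± 4.08 CPM in CTL. Mc4r was scarce and measured 2.13, 2.30, 2.66 and 3.91 CPM in cKO and 3.97, 7.52, 7.78 and 7.96 CPM in CTL: CTL DJ17 was barely above the highest cKO library, DJ19. All 9 missed the threshold without CTL DJ20 (limma adjusted p 0.0502 to 0.175), and Lct, Mc4r, Adra1d, Glt8d2, Col11a1, Dusp5 and Iqgap2 also without cKO DJ16.

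Ranking by fold change leaves out transcripts with many reads, so the 8 called genes with the largest difference in mean CPM were taken in each direction. Ppm1e, a protein phosphatase that acts on calmodulin-dependent kinases, measured 599.6, 758, 870.5 and 778 CPM in cKO and 979, 1169, 1147 and 1100.4 CPM in CTL. The lowest value was in cKO DJ15, and the highest cKO value stayed below the lowest CTL value (limma log2 fold change -0.56, SE 0.10, adjusted p = 0.0215). Cacna1e, the pore subunit of R-type calcium channels, measured 1001, 969, 1132 and 1027 CPM in cKO and 1232, 1392, 1304 and 1307 CPM in CTL, lower in every cKO library than in any CTL library (limma log2 fold change -0.34, SE 0.06, adjusted p = 0.0221). Hpca, which encodes the calcium sensor hippocalcin, measured 395, 362, 505 and 402 CPM in cKO and 634, 740.4, 645 and 561 CPM in CTL, separated although cKO DJ18 came near the CTL range (limma log2 fold change -0.64, SE 0.10, adjusted p = 0.0117). Dgkb, a diacylglycerol kinase, had the smallest adjusted p of the 8 and measured 384, 358, 349 and 339 CPM in cKO and 587, 538, 545 and 528 CPM in CTL. Its groups lay far apart relative to their spread (limma log2 fold change -0.62, SE 0.06, adjusted p = 0.000294).

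Chgb, a granin of dense-core vesicles, averaged 473 ± 43.4 CPM in cKO and 664 ± 41.6 CPM in CTL (limma log2 fold change -0.49, SE 0.07, adjusted p = 0.00767). Wipf3, a WASP-interacting actin regulator, averaged 411 ± 104 CPM in cKO and 687 ± 77.7 CPM in CTL, Camk2b, the beta subunit of calmodulin-dependent kinase II, 681 ± 22.1 CPM in cKO and 867 ± 58.7 CPM in CTL, and Kcnq3, a subunit of M-type potassium channels, 524 ± 60.7 CPM in cKO and 703 ± 43.8 CPM in CTL (SD, n = 4 each; limma adjusted p 0.0306, 0.0155 and 0.0243). Dgkb and Chgb are in the core. Ppm1e, Cacna1e, Wipf3, Hpca, Camk2b and Kcnq3 lost the call without CTL DJ20 or without cKO DJ16 (adjusted p 0.0513 to 0.130).

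Among the rises by CPM, Necab1 was followed by Negr1, a GPI-anchored adhesion protein of the IgLON family, which measured 674, 739, 558 and 669 CPM in cKO and 360.0, 353, 492 and 522 CPM in CTL. The lowest cKO value, in DJ18, was just above the highest CTL value, in DJ22 (limma log2 fold change 0.63, SE 0.13, adjusted p = 0.0381). Lrp8, a receptor for reelin and apolipoprotein E, measured 234, 267, 260.5 and 249 CPM in cKO and 179, 171, 174 and 194 CPM in CTL, and Lmo4, a LIM-only transcription cofactor, measured 254, 305, 257 and 246 CPM in cKO and 180.2, 186, 191 and 194 CPM in CTL. Neither gene's groups overlapped (limma adjusted p 0.00279 and 0.0061). Slc35f1, a member of a solute carrier family, averaged 181 ± 6.04 CPM in cKO and 118 ± 15.7 CPM in CTL (limma log2 fold change 0.63, SE 0.08, adjusted p = 0.00413). Calb1, which encodes the calcium buffer calbindin, averaged 320.5 ± 13.1 CPM in cKO and 229.7 ± 38.8 CPM in CTL, Slc4a10, a sodium-coupled bicarbonate transporter, 525 ± 60.4 CPM in cKO and 389.9 ± 18.3 CPM in CTL, and Clu, a secreted chaperone made largely by astrocytes, 413 ± 18.7 CPM in cKO and 344 ± 7.08 CPM in CTL (limma adjusted p 0.0362, 0.0278 and 0.0347). The list of 6 astrocyte markers was 2563 to 3003 CPM in cKO and 2201 to 2668 CPM in CTL, overlapping, and its part in the rise of Clu was not tested. Necab1, Lrp8, Lmo4 and Slc35f1 are in the core. Negr1, Calb1, Slc4a10 and Clu lost the call without CTL DJ20, cKO DJ16 or cKO DJ19 (adjusted p 0.0884 to 0.146). Clu and Calb1 also lost it after median-of-ratios rescaling (limma adjusted p 0.0958 and 0.0521) and with edgeR (adjusted p 0.0945 and 0.0609). Negr1 lost it with edgeR (adjusted p = 0.0554).

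**Figure D3:**
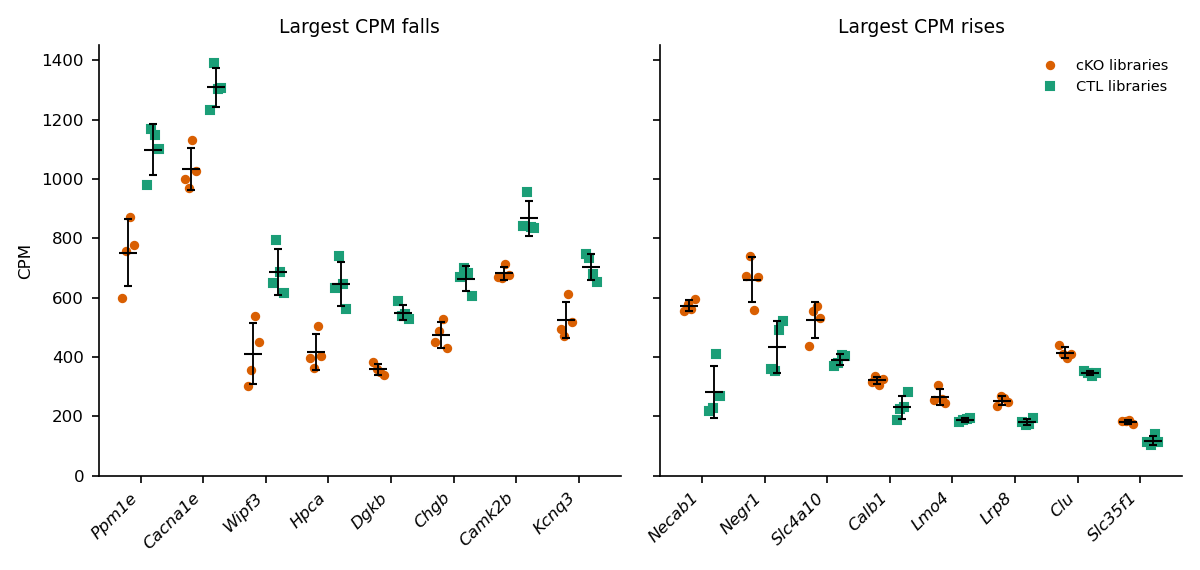
CPM of each library (points), with mean and SD (black bars), for the 8 largest falls and 8 largest rises in mean CPM, cKO in orange on the left of each pair and CTL in green on the right. In each of the 16 genes every cKO library lies on one side of every CTL library, and the cKO values of Necab1 and Camk2b lie close together.

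To describe the rest of the transcriptome, genes were sorted by the form of their symbols into 31 functional classes, which held 4693 tested genes and 76 of the 192 calls. Symbols miss members: the kinase genes Hunk and Adrbk2 lie outside the kinase class, and both were singled out after their values were seen. Hunk was lower (16.4 ± 1.87 CPM in cKO and 26.6 ± 3.52 CPM in CTL) and Adrbk2 higher (204 ± 1.82 CPM in cKO and 144 ± 22.96 CPM in CTL). Of 274 protein kinases, 5 fell and none rose (1.82% called, beside 1.38% of all genes): Plk2, Camk2b, Mapk10, Epha6 and Camk1d. Plk2, an activity-induced kinase of dendritic spines, averaged 134 ± 8.39 CPM in cKO and 194 ± 22.4 CPM in CTL, and Mapk10, the neuronal JNK3, 376 ± 14.3 CPM in cKO and 479 ± 31.4 CPM in CTL (SD, n = 4 each; limma adjusted p 0.00933 and 0.017). The median log2 fold change of the class was 0.03, close to the 0.06 of all genes. Without cKO DJ16 none of the kinases passed (Plk2 adjusted p = 0.0513), and without cKO DJ18 there were 11. Hunk and Adrbk2 lost the call without CTL DJ20, cKO DJ16 or cKO DJ19 (adjusted p 0.0620 to 0.108).

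Regulators of small GTPases also held mostly falls. Of 130 exchange factors, GTPase activators and diacylglycerol kinases, 4 fell and 1 rose (3.85%). Arhgap12, a GTPase-activating protein, measured 91.3, 100.2, 108 and 103 CPM in cKO and 172, 167, 153 and 146 CPM in CTL and did not overlap between groups (limma log2 fold change -0.66, SE 0.07, adjusted p = 0.00121). Rapgef2, an exchange factor for Rap1, averaged 234 ± 27.1 CPM in cKO and 305 ± 13.4 CPM in CTL, and Arhgef6, an exchange factor for Rac, rose and averaged 56.8 ± 8.99 CPM in cKO and 36.4 ± 5.29 CPM in CTL (limma adjusted p 0.0362 and 0.0381). The class count ranged from 2 without CTL DJ20 or cKO DJ16 to 9 without CTL DJ17. Of 134 phosphatase genes, 3 rose (Ptpn14, Ppp1r2, Ptprk) and 3 fell (Ppm1e, Ppm1k, Dusp5), which is 4.48% beside 1.38% of all genes. None of the 6 passed without CTL DJ20 or without cKO DJ16.

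Enzymes that build and modify glycans made up 137 tested genes, of which 4 fell and 1 rose (3.65%). Ndst4, an N-deacetylase and N-sulfotransferase of heparan sulfate, measured 25.7, 24.9, 15.6 and 22.1 CPM in cKO and 64.3, 61.2, 56.3 and 57.6 CPM in CTL, with every cKO library far below every CTL library. Man1a, a mannosidase of the Golgi, averaged 123 ± 9.41 CPM in cKO and 186 ± 18.5 CPM in CTL (limma log2 fold change -0.60, SE 0.08, adjusted p = 0.00446), and Chst2, a sulfotransferase acting on N-acetylglucosamine, 198 ± 17.5 CPM in cKO and 257 ± 5.63 CPM in CTL (limma log2 fold change -0.38, SE 0.07, adjusted p = 0.0179). Ust, which sulfates uronic acid in chondroitin and dermatan chains, averaged 61.2 ± 8.47 CPM in cKO and 85.2 ± 7.47 CPM in CTL. The riser was Csgalnact1, which starts and extends chondroitin sulfate chains, at 43.3 ± 3.36 CPM in cKO and 29.6 ± 3.59 CPM in CTL (limma log2 fold change 0.55, SE 0.10, adjusted p = 0.0213). The count fell to 2 without CTL DJ20 or cKO DJ16, where Ndst4 and Man1a stayed.

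Of 185 lipid enzymes and carriers, 3 rose and 4 fell (3.78%). Lpl, lipoprotein lipase, which releases fatty acids from lipoproteins, measured 46.2, 55.7, 46.4 and 45.2 CPM in cKO and 137, 123, 104 and 116 CPM in CTL, below CTL in every cKO library (limma log2 fold change -1.30, SE 0.09, adjusted p = 6.72e-05). Cd36, which takes up fatty acids and oxidized lipoproteins, measured 9.57, 13.3, 13.1 and 14.2 CPM in cKO and 2.09, 1.70, 2.18 and 1.89 CPM in CTL, the reverse pattern (limma log2 fold change 2.39, SE 0.16, adjusted p = 5.9e-05). Acadm, a mitochondrial acyl-CoA dehydrogenase, rose and averaged 41.4 ± 1.62 CPM in cKO and 31.7 ± 2.04 CPM in CTL. Elovl4, an elongase of very long chain fatty acids, fell and averaged 121 ± 5.33 CPM in cKO and 159 ± 6.60 CPM in CTL, Ptgs2, the inducible cyclooxygenase, 37.2 ± 8.25 CPM in cKO and 61.7 ± 4.97 CPM in CTL and Plpp6, a lipid phosphatase, 64.9 ± 5.93 CPM in cKO and 87.1 ± 5.09 CPM in CTL. Limma adjusted p were 0.0353, 0.00716, 0.0189 and 0.0243. Cd36, Lpl, Lrp8 and Elovl4 are in the core, and they were the 4 lipid genes left without CTL DJ20.

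Surface and extracellular genes contributed calls in both directions. Of 77 tetraspanins, integrins and CD antigens, 4 rose (Cd36, Itgbl1, Cd24a and Cd44) and 1 fell (Tspan13), 6.49% of the class. Tspan13 lost the call in 6 of the 8 fits with a library left out (limma adjusted p 0.0836 to 0.180). Cd44, a receptor for hyaluronan, averaged 17.8 ± 3.03 CPM in cKO and 6.57 ± 2.22 CPM in CTL (limma log2 fold change 1.41, SE 0.22, adjusted p = 0.00926), a call lost without cKO DJ16 (adjusted p = 0.0514). Of 121 growth factors, cytokines and binding proteins, 3 rose and 2 fell (4.13%). The risers Wnt7b and Sfrp1, a Wnt ligand and a secreted Wnt-binding protein, averaged 16.5 ± 1.13 CPM in cKO and 10.2 ± 1.71 CPM in CTL and 16.7 ± 2.29 CPM in cKO and 9.54 ± 2.07 CPM in CTL, and Gdf10, a ligand of the TGF-beta superfamily, 8.34 ± 0.952 CPM in cKO and 5.15 ± 0.637 CPM in CTL (limma adjusted p 0.0253, 0.0385 and 0.0487). Grem1 and Fgf10, whose promoter window is printed above, fell. Without cKO DJ15 or cKO DJ16 only 1 of these 5 signals passed. Of 107 collagens, laminins and matrix glycoproteins, Fibin and Col12a1 rose and Col11a1 and Matn2 fell (3.74%), and none passed without CTL DJ20, cKO DJ16 or cKO DJ19. Of 150 leucine-rich repeat and immunoglobulin proteins, Kirrel3, a homophilic synaptic adhesion protein, rose and measured 51.6, 47.2, 50.2 and 51.6 CPM in cKO and 27.4, 30.4, 29.5 and 35.1 CPM in CTL without overlap (limma log2 fold change 0.71, SE 0.09, adjusted p = 0.00236). Negr1 rose too, and Lrrtm1, a postsynaptic organizer, fell and averaged 59.8 ± 5.43 CPM in cKO and 77.9 ± 2.92 CPM in CTL. These 3 calls are 2% of the class, beside 1.38% of all genes, and only Kirrel3 passed without CTL DJ20, cKO DJ16 or cKO DJ19.

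Of 268 solute carriers, 4 rose and 3 fell (2.61%). Slc9a4 and Slc9a2, both sodium-proton exchangers of the plasma membrane, had the largest falls in fold among genes that are not predicted models. Slc9a4 measured 2.95, 5.62, 4.91 and 6.69 CPM in cKO and 19.1, 31.2, 31.6 and 31.7 CPM in CTL, with CTL DJ17 lower than its group and still above every cKO library. Slc9a2 measured 8.27, 11.7, 10.2 and 12.6 CPM in cKO and 29.0, 45.6, 38.1 and 39.7 CPM in CTL, also without overlap (limma adjusted p 0.000294 and 0.000194). Slco1c1, a transporter of thyroid hormone, rose and averaged 98.9 ± 10.9 CPM in cKO and 72.8 ± 7.402 CPM in CTL (limma log2 fold change 0.44, SE 0.09, adjusted p = 0.0449). It was singled out after its values were seen and lost the call in 7 of the 8 fits with a library left out. Without CTL DJ20 the class count fell to 3.

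Transcription factor classes held shares of calls above and below the 1.38% of all genes. Of 66 homeobox, POU and LIM genes, Lmo4 and Tshz3 rose and Pou3f1 fell (4.55%). Tshz3 lost the call without CTL DJ20, CTL DJ21, cKO DJ16 or cKO DJ19 (limma adjusted p 0.0624 to 0.150). Pou3f1, a POU factor of CA1 neurons, measured 15.9, 13.0, 19.2 and 16.6 CPM in cKO and 52.5, 50.5, 37.6 and 30.6 CPM in CTL, with CTL DJ22 the lowest of its group and above all cKO libraries (limma log2 fold change -1.36, SE 0.17, adjusted p = 0.00262). Of 176 Sox, ETS, Klf, Fox and related factors, Sox2 and Sox9 rose besides the fall of Foxp1 (1.7%, near the share of all genes). Sox2, a factor of stem cells and astrocytes, averaged 60.8 ± 7.19 CPM in cKO and 42.8 ± 5.00 CPM in CTL and Sox9, a glial factor, 65.2 ± 4.44 CPM in cKO and 49.5 ± 5.15 CPM in CTL (limma log2 fold change 0.50, SE 0.10, adjusted p = 0.0381 for Sox2 and log2 fold change 0.40, SE 0.09, adjusted p = 0.0464 for Sox9). The astrocyte markers' sums given above overlapped between genotypes, and their part in these rises was not tested. Without CTL DJ20, CTL DJ22, cKO DJ16 or cKO DJ19, 1 gene of that class passed. Of 413 zinc finger genes, 1 was called (0.242%, a share below that of all genes). Zfp804a fell and averaged 74.2 ± 4.26 CPM in cKO and 105 ± 3.503 CPM in CTL (limma log2 fold change -0.50, SE 0.06, adjusted p = 0.00262), and it is in the core. None of 58 basic helix-loop-helix genes was called, beside 1.38% of all genes. Neurod6, a factor of pyramidal neurons, averaged 372 ± 70.2 CPM in cKO and 515 ± 63.2 CPM in CTL (adjusted p = 0.0833).

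**Figure D4:**
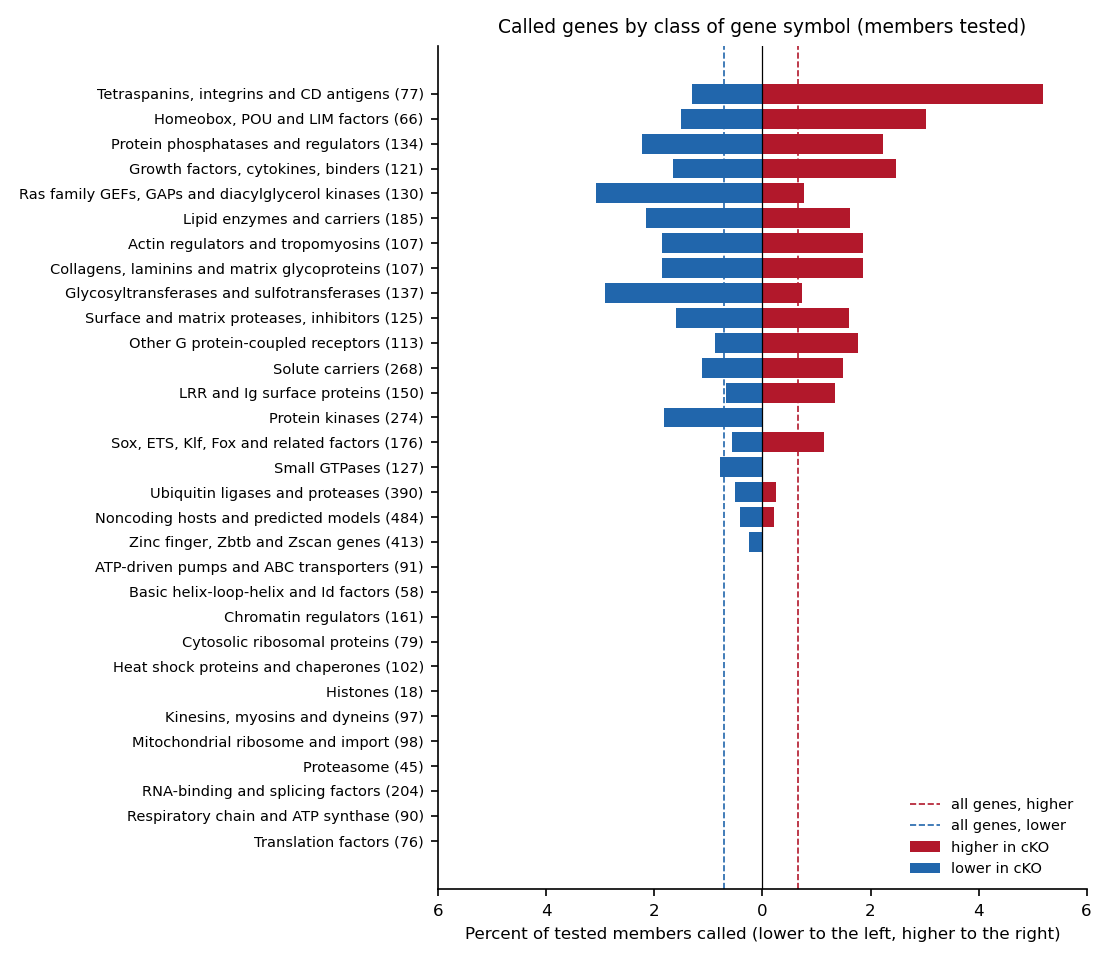
Bars give the percent of tested members called higher (red, right) or lower (blue, left) in cKO for the 31 classes, with the number tested in brackets and dashed lines at the share among all genes. The kinase class has 5 falls and no rises among 274 genes, 1.82% called and near the 1.38% of all genes. The kinase gene Adrbk2, which rose, lies outside it. Tetraspanins, integrins and CD antigens have 4 rises and 1 fall, and the 12 classes at the foot have no call.

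Symbol classes of general cell machinery held no calls in this comparison, although single genes outside them, such as Lsm11 of histone pre-mRNA processing and the small heat shock protein gene Cryaa, were called. With limma, none was called among 204 RNA-binding and splicing genes, 161 chromatin regulators, 102 heat shock proteins and chaperones, 98 mitochondrial ribosome and import genes, 97 kinesins, myosins and dyneins, 91 pumps and ABC transporters, 90 respiratory chain genes, 79 cytosolic ribosomal proteins, 76 translation factors, 45 proteasome genes and 18 histones. Their members could be measured: the median log2 fold change was 0.12 for ribosomal proteins, 0.01 for the respiratory chain, 0.05 for the proteasome and 0.07 for chromatin regulators, beside 0.06 for all genes. The fold changes of ribosomal proteins spanned -0.21 to 0.36, and Rps16 had 0.36 (adjusted p = 0.2). The calcium pump Atp2b1, an abundant plasma membrane ATPase, averaged 2090.2 ± 338 CPM in cKO and 2861 ± 338 CPM in CTL (adjusted p = 0.0741), and the PHD finger gene Phf20 117 ± 9.90 CPM in cKO and 153 ± 14.7 CPM in CTL (adjusted p = 0.0536). A p that misses the threshold does not show that these genes were equal in both genotypes. With 1.38% of all genes called, a class of such a size would hold few calls, so a count of 0 says little about any single class. Among the chromatin regulators, 17 had all cKO values above all CTL values and 2 had them all below, beside 5.32% and 2.69% of all genes. With 1 library left out, at most 3 genes of any of these classes passed (kinesins, myosins and dyneins without CTL DJ17).

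The remaining classes held single calls in both directions. Of 107 actin regulators, Smtn and Ablim1 rose and Fmn1 and Arpc2 fell (3.74%). Smtn, a smoothelin of contractile cells, averaged 7.53 ± 3.56 CPM in cKO and 2.24 ± 0.638 CPM in CTL, and Arpc2, a subunit of the actin-branching Arp2/3 complex, 344 ± 28.9 CPM in cKO and 439.7 ± 34.3 CPM in CTL (limma adjusted p 0.0262 and 0.0432); none of the 4 passed without CTL DJ20, CTL DJ21 or cKO DJ19. Of 125 surface and matrix proteases and inhibitors, Adamtsl1 and Bace2 rose and Prss35 and Spink8 fell (3.2%), and 1 gene of the class passed without CTL DJ20. Among 113 other G protein-coupled receptors, 2.65% were called, beside 1.38% of all genes, and Ptger3 and Smo rose. Smo, the signal transducer of the hedgehog pathway, averaged 11.8 ± 0.660 CPM in cKO and 7.74 ± 0.917 CPM in CTL (limma log2 fold change 0.58, SE 0.12, adjusted p = 0.0416), a call lost in each of the 8 fits with a library left out. Of 390 ubiquitin ligases and proteases, Klhl14 rose and Hectd2 and Herc3 fell (0.769%), a share below that of all genes. Herc3 lost the call without CTL DJ20, CTL DJ21, cKO DJ16 or cKO DJ19 (limma adjusted p 0.0654 to 0.0954). Of 127 small GTPases, Rasd1, a dexamethasone-induced Ras protein, was the only call (0.787%, a share below that of all genes). Rasd1 fell and averaged 11.0 ± 3.97 CPM in cKO and 25.9 ± 4.15 CPM in CTL (limma log2 fold change -1.26, SE 0.24, adjusted p = 0.0262), a call lost without CTL DJ20, CTL DJ21 or cKO DJ16. Of 484 noncoding host genes and predicted models, 1700024P16Rik and Gm2115 fell and 2310022B05Rik rose (0.620%), also a share below that of all genes. Gm2115 lost the call in 6 of the 8 fits with a library left out and with robust variances (limma adjusted p = 0.126), and 2310022B05Rik in 7 of the 8. The class count ranged from 1, without any of 6 libraries in turn, to 7 without cKO DJ18.

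The remaining members of the core were singled out after their values were seen. Prkar2b, a regulatory subunit of protein kinase A, rose and averaged 132 ± 11.0 CPM in cKO and 89.9 ± 7.96 CPM in CTL (limma log2 fold change 0.56, SE 0.08, adjusted p = 0.00716). Car12, a membrane carbonic anhydrase, rose and averaged 121 ± 17.1 CPM in cKO and 73.2 ± 7.10 CPM in CTL (limma log2 fold change 0.72, SE 0.10, adjusted p = 0.00604). Neto1, an auxiliary subunit of kainate receptors, fell and averaged 183 ± 11.7 CPM in cKO and 258 ± 24.4 CPM in CTL (limma log2 fold change -0.50, SE 0.08, adjusted p = 0.00895). Mmd, a membrane protein first described in macrophage differentiation, fell and averaged 478 ± 32.5 CPM in cKO and 655 ± 47.3 CPM in CTL (limma log2 fold change -0.45, SE 0.07, adjusted p = 0.00795). Hectd2, a ubiquitin ligase, averaged 79.4 ± 7.21 CPM in cKO and 113 ± 8.49 CPM in CTL (limma log2 fold change -0.51, SE 0.08, adjusted p = 0.0101). Cryaa, a small heat shock protein of the lens, was scarce, with 0.709, 1.73, 2.16 and 1.07 CPM in cKO, and in CTL with 0.0895 CPM in DJ20 and 0 in the other 3 libraries. Libraries of the 2 genotypes did not overlap in any of these genes. The sources used here do not say whether counting used strand. In the annotation of GENCODE release M21, 49 of 190 called genes overlap an exon of another gene on the opposite strand, so their reads cannot be told apart if strand was not used. Among the genes described, these include Necab1, Hpca, Wipf3, Kcnh7, Cabp7, Homer2, Slc9a4, Man1a, Pou3f1, Stac, Klhl14, Adra1d, Dusp5, Glt8d2, Ptpn14, Fgf10, Epha6, Matn2, Me3, Wnt7b, Smtn, Fmn1, Neto1, Hectd2, Cryaa, Gfra1, Kcnq5, Plpp6, Ralgapa1 and Zmiz1.

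Markers of hippocampal cell types were all detected. Of 8 CA1 markers, 4 fell (Ndst4, Pou3f1, Man1a and Spink8) and none rose, with a median log2 fold change of -0.71. That is 50% called, beside 1.38% of all genes, on a list written with earlier results of these data known. The sum of the 8 markers was 281 to 381 CPM in cKO and 417 to 533 CPM in CTL, separated. It includes the 4 called genes and so adds nothing independent of them. The remaining CA1 markers did not pass. Wfs1 averaged 51.1 ± 22.7 CPM in cKO and 47.9 ± 12.5 CPM in CTL and Mpped1 66.4 ± 10.8 CPM in cKO and 75.5 ± 13.9 CPM in CTL (limma adjusted p 0.964 and 0.605). Fibcd1 averaged 18.3 ± 3.91 CPM in cKO and 33.0 ± 9.02 CPM in CTL with an adjusted p of 0.0786. At least 3 of the CA1 calls remained with any library left out. Whether fewer CA1 cells or less of these transcripts per cell was sampled cannot be told apart.

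Other subfields had short lists with 1 call each or none. A single call made up 25% of the 4 CA3 markers and 20% of the 5 tested dentate markers, beside 1.38% of all genes. For the 5 tested mossy cell markers it was also 20%. Each of these shares rests on 1 gene. In the list of 5 mossy cell markers tested, Calb2, which encodes calretinin, rose and measured 60.1, 74.6, 44.3 and 63.1 CPM in cKO and 5.74, 5.91, 10.5 and 18.8 CPM in CTL. CTL DJ22 was the highest control and lay far below all cKO libraries (limma log2 fold change 2.64, SE 0.31, adjusted p = 0.00164). All 7 markers listed for mossy cells, 5 of them tested, summed to 108 to 142 CPM in cKO and 72.1 to 86.6 CPM in CTL. This sum was separated too, but it includes Calb2, whose own groups lie far apart. Its separation therefore adds nothing independent of that gene. The remaining markers of that list were not called, and Csf2rb2, Ajap1 and Calcrl averaged 2.78 ± 1.09 CPM in cKO and 1.30 ± 0.334 CPM in CTL, 38.8 ± 2.82 CPM in cKO and 41.8 ± 2.67 CPM in CTL and 26.1 ± 2.52 CPM in cKO and 24.5 ± 0.995 CPM in CTL. Among dentate markers Lct fell, while Prox1, the defining granule cell factor, averaged 226 ± 23.2 CPM in cKO and 234 ± 48.5 CPM in CTL and Dsp, which encodes desmoplakin, 34.4 ± 12.2 CPM in cKO and 62.7 ± 14.9 CPM in CTL (limma adjusted p 0.949 and 0.104). Among CA3 markers Coch rose, while Grik4, a kainate receptor subunit, averaged 35.7 ± 5.23 CPM in cKO and 43.7 ± 8.49 CPM in CTL. The median log2 fold change of the 4 CA3 markers was -0.36, with values from -0.69 to 1.04, the highest being Coch. In 1 uncalled CA3 marker every cKO library lay below every CTL library. The single calls of the dentate and CA3 lists were lost in 6 of the 8 fits with a library left out. No marker of CA2, interneurons, astrocytes, oligodendrocytes, their precursors, microglia, endothelium, mural cells, choroid plexus, ependyma, Cajal-Retzius cells, thalamus, striatum or neighbouring cortex was called. The 6 striatal markers had a median log2 fold change of 0.73 and overlapping libraries, and choroid plexus markers summed to 926 to 1817 CPM in cKO and 567 to 1039 CPM in CTL, with the highest value in cKO DJ18.

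Metabolic and signalling lists were short and held at most 1 call each. Of 23 genes of serine, glycine and one-carbon metabolism, Psat1 alone was called. It encodes phosphoserine aminotransferase of the serine pathway and measured 105, 89.9, 128 and 101 CPM in cKO and 74.96, 65.4, 64.4 and 63.3 CPM in CTL, with every cKO value above CTL (limma log2 fold change 0.65, SE 0.10, adjusted p = 0.00926), and it is in the core. Of 26 retinoid and steroid genes, Aldh1a1, a retinaldehyde dehydrogenase, fell and averaged 28.3 ± 6.60 CPM in cKO and 50.6 ± 11.0 CPM in CTL (limma log2 fold change -0.83, SE 0.18, adjusted p = 0.0417), a call lost in 6 of the 8 fits with a library left out. Cyp26a1, which degrades retinoic acid, is not on that list and was singled out after its values were seen. It was scarce and measured 1.54, 1.15, 1.497 and 1.78 CPM in cKO and 0.209, 0.269, 0.291 and 0.607 CPM in CTL, all cKO values above CTL (limma log2 fold change 1.25, SE 0.23, adjusted p = 0.0212), and lost the call without CTL DJ20, CTL DJ21 or cKO DJ19 (adjusted p 0.0633 to 0.0869). Of 15 feedback regulators of MAP kinase signalling Dusp5 fell, and none of 24 glycolysis and pentose phosphate genes or 20 unfolded protein response genes was called. The shares called were 4.35% of the serine, 3.85% of the retinoid and 6.67% of the MAP kinase list, beside 1.38% of all genes. With so few members, 1 call or none says little about a list.

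The same genotype comparison in cortex used 4 cKO and 4 CTL libraries of its own and called 1847 of 13713 genes (13.5%). Of the 192 hippocampal calls, 186 were tested there. A set of 64 genes was called in the same direction, 35 higher and 29 lower, which is 33.3% of the hippocampal and 3.47% of the cortical calls. Cd36 rose in both, with cortical means of 2.28 ± 0.356 CPM in cKO cortex and 0.857 ± 0.357 CPM in CTL cortex (SD, n = 4 each; limma log2 fold change 1.06, adjusted p = 0.00488). Pkd2l1, a channel of the polycystin family, measured 6.14, 8.93, 12.3 and 5.12 CPM in cKO and 1.15, 0.537, 0.291 and 0.675 CPM in CTL in hippocampus and averaged 5.11 ± 2.23 CPM in cKO cortex and 0.133 ± 0.115 CPM in CTL cortex. Hrk averaged 45.6 ± 4.86 CPM in cKO cortex and 28.4 ± 5.94 CPM in CTL cortex. Cdh12, a classical cadherin, and Lsm11, a subunit of the histone pre-mRNA processing machinery, fell in both: hippocampal means were 23.7 ± 0.502 CPM in cKO and 41.6 ± 3.93 CPM in CTL for Cdh12 and 30.1 ± 3.23 CPM in cKO and 53.9 ± 4.33 CPM in CTL for Lsm11, and cortical log2 fold changes were -0.43 and -0.55 (adjusted p 0.00348 and 0.000102). Foxp1 averaged 113 ± 21.2 CPM in cKO cortex and 284 ± 14.1 CPM in CTL cortex, and its hippocampal minus cortical effect was 0.42 (limma SE 0.18, adjusted p = 0.297).

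A second set of 18 hippocampal calls was called in cortex in the opposite direction. The difference of the 2 effects was fitted as an interaction over all 16 libraries and called 378 of 13881 genes (2.72%). All 18 passed it, and 67 of the 191 hippocampal calls that could be fitted did so (35.1%), 49 with a more negative and 18 with a more positive effect in hippocampus. The genes with opposite calls were chosen in the same libraries, so their passing was nearly fixed by the choice. The 191 were likewise chosen for a hippocampal effect, which enters the interaction. Their share of 35.1% therefore cannot be weighed against the 2.72% of all genes. The genes named were taken by the smallest interaction p or singled out after their values were seen, so their interactions are a description. Lpl fell in hippocampus as given above but averaged 99.03 ± 16.3 CPM in cKO cortex and 32.2 ± 4.09 CPM in CTL cortex (cortical log2 fold change 1.60, limma interaction -2.90, SE 0.16, adjusted p = 9.76e-10). Ndst4 also turned round, at 24.7 ± 10.8 CPM in cKO cortex and 9.05 ± 5.85 CPM in CTL cortex (interaction -2.98, adjusted p = 0.0012).

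Dgkb averaged 429 ± 25.4 CPM in cKO cortex and 332 ± 12.3 CPM in CTL cortex (interaction -0.99). Sorcs3, a sorting receptor of the Vps10 family, measured 54.3, 49.3, 41.8 and 54.0 CPM in cKO and 66.5, 79.9, 78.7 and 76.1 CPM in CTL in hippocampus without overlap and averaged 119 ± 6.24 CPM in cKO cortex and 67.2 ± 0.917 CPM in CTL cortex (interaction -1.41). Plk2 averaged 258 ± 12.6 CPM in cKO cortex and 178 ± 3.66 CPM in CTL cortex (interaction -1.06), and Ptgs2 averaged 47.1 ± 4.85 CPM in cKO cortex and 29.3 ± 2.50 CPM in CTL cortex (interaction -1.41). These 4 had interaction adjusted p of 2.46e-07, 2.46e-07, 2.62e-06 and 5.33e-05. Fgf10 averaged 19.96 ± 1.13 CPM in cKO cortex and 10.7 ± 0.870 CPM in CTL cortex (interaction -1.43, adjusted p = 2.3e-05). Cacna1e, Chrm3, Col11a1, Cpne4, Epha6, Matn2, Ncdn, Plpp6 and 1700024P16Rik likewise fell in hippocampus and rose in cortex.

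The reverse turn, higher in cKO hippocampus and lower in cKO cortex, was called in both regions for Hpse and Sccpdh. Hpse, the enzyme that cleaves heparan sulfate, was scarce and measured 0.827, 1.44, 2.25 and 1.92 CPM in cKO and 0.522, 0.269, 0.291 and 0.337 CPM in CTL in hippocampus and averaged 0.832 ± 0.411 CPM in cKO cortex and 1.82 ± 0.254 CPM in CTL cortex (interaction 2.10, adjusted p = 0.00143). Sccpdh, a dehydrogenase family member, measured 82.3, 89.4, 86.1 and 91.5 CPM in cKO and 76.3, 61.1, 66.6 and 70.5 CPM in CTL and averaged 52.8 ± 2.26 CPM in cKO cortex and 66.3 ± 3.03 CPM in CTL cortex (interaction 0.68, adjusted p = 0.000359). Some genes moved in hippocampus with no cortical call. Homer2, a postsynaptic scaffold, measured 106, 85.3, 80.01 and 88.5 CPM in cKO and 226, 231, 197 and 197 CPM in CTL in hippocampus without overlap, while it averaged 174 ± 15.5 CPM in cKO cortex and 169.5 ± 12.4 CPM in CTL cortex (cortical adjusted p = 0.782; interaction -1.28, adjusted p = 3.33e-06). Lmo4 averaged 396 ± 29.2 CPM in cKO cortex and 415 ± 34.6 CPM in CTL cortex (interaction 0.56), Chrna4, a nicotinic receptor subunit, 20.5 ± 1.17 CPM in cKO cortex and 23.2 ± 1.19 CPM in CTL cortex (interaction 0.92), Me3, a mitochondrial malic enzyme, 33.8 ± 3.14 CPM in cKO cortex and 39.9 ± 2.79 CPM in CTL cortex (interaction 0.63), and Bace2, an aspartyl protease, 1.48 ± 0.798 CPM in cKO cortex and 2.55 ± 0.568 CPM in CTL cortex (interaction 2.06). The limma adjusted p of these 4 interactions ran from 0.00143 to 0.00632. The interactions of Lpl, Dgkb, Sorcs3, 1700024P16Rik, Plk2, Homer2, Sccpdh, Me3, Hpse, Lmo4, Chrna4 and Bace2 passed in each of 16 other settings, among them every hippocampal library left out. Of the 18 genes called in opposite directions, Lpl, Ndst4, Dgkb, 1700024P16Rik and Cpne4 are in the core. The other 13 lost the hippocampal call without CTL DJ20 or without cKO DJ16, Chrm3 without CTL DJ20 alone and Plk2 without cKO DJ16 alone.

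**Figure D5:**
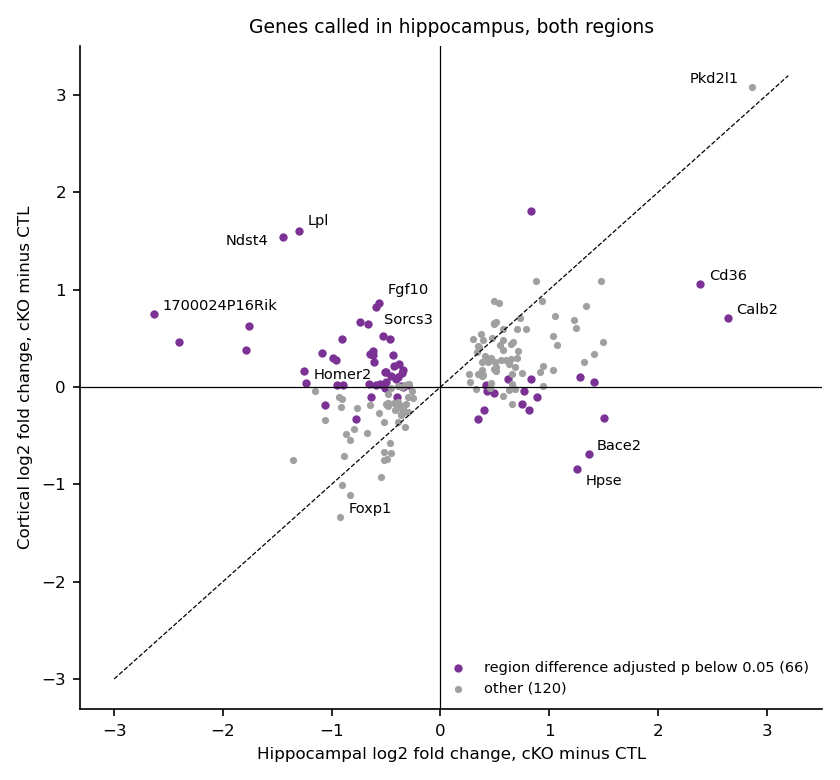
Log2 fold change, cKO minus CTL, in hippocampus (x) against cortex (y) for the 186 hippocampal calls tested in both regions, with purple points where the difference between regions passed an adjusted p of 0.05 (66 genes) and a dashed line at equal effects. Purple points fill the upper left, where Lpl, Ndst4, Sorcs3 and Fgf10 fall in cKO hippocampus and rise in cKO cortex.

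The authors' deposited table of hippocampal changes lists 243 genes, 99 higher and 144 lower in cKO. Its largest adjusted p is 0.00491 and its smallest absolute log2 fold change is 0.32. Calls here used an adjusted p below 0.05 and no fold change floor, so the overlap is between unlike thresholds. All 243 listed genes were tested here and all had the same direction. Of them 127 were also called, which is 52.3% of the authors' list and 66.1% of the calls made here. Of the other 116, 100 had an unadjusted limma p below 0.05. The authors' deposited table gives Vgll3, a transcription cofactor, a log2 fold change of 1.86; here its mean was 33.2 CPM in cKO and 8.81 CPM in CTL, with a limma adjusted p of 0.0786. It gives Penk, which encodes proenkephalin, 0.62, and Penk averaged 166 CPM in cKO and 103 CPM in CTL here (limma adjusted p = 0.404). Striatal markers, among which Penk is often counted, differed between libraries of one genotype as given above, and their part in the Penk values was not tested. A further 65 genes were called here only, among them, chosen after their values were seen, Gfra1, a receptor subunit for GDNF, at 75.2 ± 4.49 CPM in cKO and 54.4 ± 3.69 CPM in CTL, Kitl, the ligand of the Kit receptor, at 105 ± 7.49 CPM in cKO and 78.8 ± 4.10 CPM in CTL, and Zmiz1, a transcription coregulator, at 178 ± 12.3 CPM in cKO and 136 ± 3.94 CPM in CTL (limma adjusted p 0.0103, 0.0163 and 0.0117). Gfra1 is in the core, Zmiz1 missed the threshold without CTL DJ20 (adjusted p = 0.0513), and Kitl without CTL DJ20, CTL DJ21, cKO DJ16 or cKO DJ19 (adjusted p 0.0585 to 0.0808).

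The deposited files also hold symbol lists of genes changed in heterozygous Foxp1 knockouts, without values. Of 592 tested genes of the list higher in heterozygotes, 15 rose and 2 fell in cKO hippocampus (2.87% called, beside 1.38% of all genes; median log2 fold change 0.19, beside 0.06). Of 681 tested genes of the list lower in heterozygotes, 46 fell and 10 rose (8.22% called, median -0.11). The shared falls are 6.75% of the tested lower list, where 0.719% of all tested genes fell, and 46.0% of the 100 falls, among them Lpl, Sema3e, Slc9a2, Slc9a4, Lsm11, Cabp7, Pou3f1, Kcnab2, Lynx1 and Kcnq5. Singled out after their values were seen, Kcnab2, an auxiliary potassium channel subunit, averaged 189 ± 21.7 CPM in cKO and 324 ± 40.6 CPM in CTL (limma log2 fold change -0.78, SE 0.10, adjusted p = 0.00263), Lynx1, a modulator of nicotinic receptors, 82.8 ± 3.40 CPM in cKO and 119 ± 8.08 CPM in CTL (limma log2 fold change -0.52, SE 0.07, adjusted p = 0.00266), and Kcnq5, an M-type channel subunit, 159 ± 5.91 CPM in cKO and 229 ± 21.5 CPM in CTL (limma log2 fold change -0.52, SE 0.07, adjusted p = 0.00433). The 15 shared rises include Calb2, Adamtsl1, Kcng3, C4b, Slc35f1, Adra2a and Necab1. Hrk, Itgbl1 and Lmo4 went against the list, higher in cKO hippocampus and on the lower list. The tissue behind these lists is not stated.

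None of the 10 tested genes on each side of Foxp1 on chromosome 6 was called, the farthest being 4.97 Mb away. Of these 20 genes, 5 had an unadjusted limma p below 0.05, beside 1886 of 13899 over all tested genes. Their median log2 fold change was 0.10. The gene that stood out was Gm765, a predicted gene 0.583 Mb from Foxp1, which measured 6.85, 2.45, 0.998 and 1.14 CPM in cKO and 0.104, 0.806, 0.145 and 0.0675 CPM in CTL (limma log2 fold change 1.88, SE 0.46, adjusted p = 0.0786). Every cKO value was above every CTL value, with cKO DJ15 far above the rest, and the 4 CTL values rest on 13 reads in all. On the other side, 0.099 Mb from Foxp1, Eif4e3, a cap-binding protein, averaged 38.5 ± 6.73 CPM in cKO and 36.8 ± 3.69 CPM in CTL (limma adjusted p = 0.894). Rybp, a Polycomb subunit 0.706 Mb away, averaged 59.0 ± 1.67 CPM in cKO and 52.1 ± 1.48 CPM in CTL (limma adjusted p = 0.228). Over the genome, called genes lay on every autosome and the X chromosome, from 0.879% of tested genes on chromosome 7 to 2.34% on chromosome 19.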

How the data were processed

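RNA was measured by poly(A) sequencing of mouse hippocampus, 4 cKO and 4 CTL libraries, and of cortex, 4 and 4. The deposited table gives counts-per-million (CPM) per gene; per the submitters' processing notes, STAR, HTSeq and edgeR were used with mm10 (GRCm38), with no versions given. The values divide out to whole reads in 100% of cases within 0.001, from which depth per library was recovered, 6943136 to 14817870 reads in hippocampus. CPM carries no correction for gene length, so levels are not compared between genes.

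Values were taken as log2(CPM + 0.5), which understates changes of scarce genes, for genes averaging 0.5 CPM or more in the 8 hippocampal libraries. The main test was limma 3.58.1 with an intensity trend (R 4.3.3) on the hippocampal libraries alone, without covariates, with Benjamini-Hochberg adjustment over all tested genes and a threshold of 0.05. The difference between regions was an interaction term over all 16 libraries. The labels give 4 independent replicates per genotype without saying that each is 1 animal, so p-values measure the spread between these libraries. Alternatives were 2 other pseudocounts, 2 other minimums, median-of-ratios and quantile rescaling, robust variances, edgeR 4.0.16 quasi-likelihood tests on recovered reads, 1 fit of all libraries, a fold change floor of 0.3, each library left out, and DJ18 to DJ22 alone, which was chosen after results of these data were known. On simulated data limma recovered 42.0% of 100 genes changed by 0.5 on the log2 scale and 86.0% of 100 changed by 1, with 5 false calls among 13823 genes.

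The authors' deposited table of changed genes gives log2 fold changes and adjusted p-values, named as theirs where printed. Lists of genes changed in heterozygotes hold symbols only. Named genes were Foxp1, ranks 11 to 25 by fold change in each direction among called genes of at least 1 CPM whose groups do not overlap, the 8 largest CPM differences in each direction, up to 3 called genes per class, the 6 smallest interaction p in each direction and 6 genes called in both regions, the neighbours of Foxp1 and the genes whose promoters are shown. Called genes named beyond this rule, as further members of a class or list, were chosen after their values were seen. Members, lists and symbol classes were chosen with earlier results of these data known. Some genes that meet these rules are not reported here.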

Additional observations from a re-analysis of the deposited data

Results flagged for a closer look

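Hippocampal and cortical genotype effects differed, by the limma interaction over all 16 libraries, for 14 of the 18 genes looked at. Of these, 12 were taken for the smallest interaction p among hippocampal calls, 6 in each direction, so that their passing was fixed by the choice. Of the other 6, taken for calls in both regions, Cd36 and Calb2 passed. The hippocampal minus cortical log2 fold change was 0.68 for Sccpdh, 0.63 for Me3, 2.10 for Hpse, 0.56 for Lmo4, 0.92 for Chrna4, 2.06 for Bace2, 1.33 for Cd36 and 1.93 for Calb2. It was -2.90 for Lpl, -0.99 for Dgkb, -1.41 for Sorcs3, -3.38 for 1700024P16Rik, -1.06 for Plk2 and -1.28 for Homer2.

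A single library lay far from the other 3 of its genotype in 12 of 212 groups of 4 libraries looked at. Chance alone gives about 1 in 20 such groups. The gap to the nearest library, as a share of the group's range, was 0.857 for Adra2a (CTL DJ22 high), 0.963 for Slc9a4 (CTL DJ17 low), 0.862 for Stac (CTL DJ22 low), 0.889 for Lpl (cKO DJ16 high), 0.905 for Adamtsl1 (cKO DJ15 low) and 0.839 for Echdc2 (cKO DJ19 high). It was 0.889 for Mc4r (CTL DJ17 low), 0.919 for Camk2b (CTL DJ20 high), 0.993 for Ppm1k (CTL DJ17 high), 0.876 for Gm2115 (CTL DJ20 high), 0.936 for Cpne4 (CTL DJ22 low) and 0.910 for Epha6 (cKO DJ18 high).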

How the results depend on the processing

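The 192 called genes kept their direction in all alternatives in which they were tested. For fits on fewer libraries this was fixed in advance, because the groups of all 192 did not overlap. The count of calls ranged from 56 to 295 with 1 library left out, the count higher in cKO from 25 to 158 and the count lower in cKO from 31 to 146. It was 446 (230 higher, 216 lower) with all 16 libraries in 1 fit, and without an expression minimum it was 129, with 59 higher and 70 lower. Higher calls numbered 60 after median-of-ratios rescaling, 56 after quantile normalization and 59 with edgeR. The fall of Foxp1 passed in each alternative, with the weakest value of -0.68 (limma adjusted p = 0.0444) in DJ18 to DJ22 alone. The interaction count, 378, ranged from 248 to 699 with 1 library left out. Among the other values of named genes and classes, 5087 stayed on their side of the threshold or within the spread, 423 lost it, 29 gained it, 197 counts moved and none reversed. Depth limits scarce genes: at 0.5 to 1 CPM no change below 1.25 on the log2 scale was called. No paired analysis was possible because the genotypes share no replicate numbers. The cause of these differences was not tested.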
